A study of Mus musculus with 20 samples.

Results

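The rows examined here are Riiad1, Ctcfl, Tdrkh, Ermard and Hdnr, 5 of the 46329 gene rows counted in mouse colorectal tissue. They were chosen by measured values: their counts were high in tissue next to tumors and at or near 0 in tumors. Riiad1, Ctcfl, Hdnr and Tdrkh were among the 10 largest falls from adjacent tissue to tumor in control mice, at ranks 2, 4, 6 and 7. Ermard held rank 7 among the 10 largest falls in Erbb2-deficient mice. The ranking took rows past the test with a mean of at least 5 CPM (a count scaled to a fixed library size) and no overlap between the groups. It left out rows by name: those beginning with Gm and a digit, Igh, Igk, Igl, Tra, Trb, Trg or Trd, or ending in Rik. Some rows so left out had large falls, such as A930016O22Rik, with a log2 fold change of -7.09 in control and -6.70 in Erbb2-deficient mice. All ranks given hold only among the rows that were kept. The control list closed with Des at a log2 fold change of -5.25, and Cnn1 at -5.21 was the next row. In Erbb2-deficient mice it closed with Itga7 at -5.15, and Sycn at -5.11 was the next. The difference between tissues therefore chose the rows, and in the genotype that chose each row it is given as a description with no test.

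RNA was sequenced from 20 samples of mice aged 100 days, 5 in each of 4 groups. All animals carried ApcMin, an allele that gives mice intestinal tumors, and a floxed Erbb2 gene on both chromosomes, on a C57BL/6J background. Erbb2-deficient mice also carried Tg(Vil1-cre), a cre recombinase driven by the Vil1 promoter of intestinal epithelium, and their littermates without cre are the controls, labelled WT. From each genotype there were colorectal tumors and adjacent epithelium outside them. Deletion is directed to epithelium, so other cells of a sample keep the floxed gene, and genotype and presence of cre cannot be told apart.

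A row of a count table is named for 1 gene, but these rows have to be read with the gene on the other strand in view. The library kit, TruSeq Stranded mRNA, marks the strand of the RNA. Reads on gene rows made up 2.51% to 3.45% of a file and numbered 1071737 to 1944309, while 78.6% to 85.1% lay on no counted feature. The row of ND6, the mitochondrial protein gene encoded on the strand opposite the others, held 22599 to 199495 counts. The other 12 mitochondrial protein rows together held 884 to 5698. The Gapdh row averaged 3.85 counts, the Actb row 81.2 and the Eef1a1 row 145. By these values the rows hold reads from the strand opposite the named gene, so the Riiad1 row counts RNA running in the direction of Celf3, and the Celf3 row counts RNA running in the direction of Riiad1. Which transcript gave the reads cannot be read from 1 number per row, and was not tested. Among the control tumors, 2 libraries were unlike the rest. Control tumor 2 had a summed level of 17.2 CPM over 7 epithelial markers, where the others had 254 to 456 CPM, and 0 over the goblet cell markers. Control tumor 3 had 145 CPM over the colonocyte markers, where the others had 2.72 to 17.8 CPM. Both held 0 counts in the 5 rows, but for 2 counts of Ermard in tumor 3.

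The gene names belong to several kinds of biology. Riiad1 encodes a small protein with a regulatory-subunit dimerization domain, and Celf3 an RNA-binding protein of the CELF splicing family known from neurons. Ctcfl, also called BORIS, is the germ-line paralog of the insulator protein CTCF, and Ctcflos is a noncoding RNA listed on its opposite strand. Tdrkh is a tudor and KH domain protein on mitochondria that takes part in making piRNAs, the small RNAs that silence transposons in germ cells. Oaz3 is the antizyme of the testis, a protein that limits polyamine synthesis in developing sperm. Ermard encodes a membrane protein of the endoplasmic reticulum, and Tcte3 a dynein light chain first described in testis. Hdnr, or Handsdown, is a long noncoding RNA downstream of Hand2, a transcription factor of the heart, limb and gut mesenchyme.

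In the GENCODE annotation (release M21, assembly GRCm38, another build than the mm39 of the counts, so used only for names and overlaps), every one of the 5 genes shares exonic bases with a gene on the opposite strand. Riiad1, on chromosome 3, shares 74 bases with Celf3, or 9.1% of its exonic bases. They lie in a noncoding transcript of Riiad1 and in coding or 5′ untranslated exon of Celf3. Ctcfl, on chromosome 2, shares 171 bases of coding exon with Ctcflos (5.32%). Tdrkh, on chromosome 3, shares 2255 bases with Oaz3 (36.7%), in the 3′ untranslated region of Tdrkh. Ermard, on chromosome 17, shares 193 bases with Tcte3 (2.66%), in the 5′ untranslated region of Ermard, and 97 with the gene model Gm3448. Hdnr, on chromosome 8, shares 985 bases with the noncoding RNA Gm34030 (9%). Tdrkh, Oaz3, Mrpl9, Riiad1 and Celf3 follow each other along chromosome 3. Oaz3 also lies opposite a 2nd row: it shares 157 bases with Mrpl9 (5.81%), a gene of the mitochondrial ribosome, on the same strand as Tdrkh. Of 8 listed Oaz3 transcripts, 7 cross exons of Tdrkh and 2 cross exons of Mrpl9, and both of these cross Tdrkh too. RefSeq draws shorter models for some pairs. There the spans of Ctcfl and Ctcflos are 5223 bases apart and those of Mrpl9 and Oaz3 6502 bases apart. Whole spans overlap by 2042 bases for Riiad1 and Celf3, 1468 for Tdrkh and Oaz3, and 2706 for Hdnr and Gm34030. For Ermard and Tcte3 the overlap is only 9 bases.

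The meaning of a shared stretch is easiest to see in the letters. The lines below give 30 bases from the middle of a shared stretch for 4 pairs, from the GENCODE transcripts, once as each gene's RNA would read, 5′ to 3′. Each second line is the reverse complement of the first, and a strand-specific count puts a read of one on 1 row and a read of the other on its partner.
Riiad1: ctctgggccttcagggctgaatcgcgagca
Celf3: tgctcgcgattcagccctgaaggcccagag
Ctcfl: catcaaaattcacagcaatgagaggccaca
Ctcflos: tgtggcctctcattgctgtgaattttgatg
Mrpl9: cctgcaccggcgtcaccgcgtgtataagtt
Oaz3: aacttatacacgcggtgacgccggtgcagg
Hdnr: gaagtccgtgcctcgcagcctcctccccct
Gm34030: agggggaggaggctgcgaggcacggacttc

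All 5 rows were detected in all 10 adjacent samples. In the 10 tumors they held 0 to 4 counts, but for 13 counts of Tdrkh in Erbb2-deficient tumor 5. In every row, each adjacent library lay above each tumor library of the same genotype. That pattern held for 6.66% of the 7119 rows tested in control mice and for 13.6% in Erbb2-deficient mice, and the choice of rows fixed it in 1 genotype of each. Values below are counts, or CPM over the rows tested after TMM scaling, a correction for differences in library composition. In bulk samples, fewer cells of a type and less RNA per cell cannot be told apart. Nothing in the labels ties a tumor to an adjacent sample of one mouse, and the spread behind each p-value is that between libraries.

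**Figure D1:**
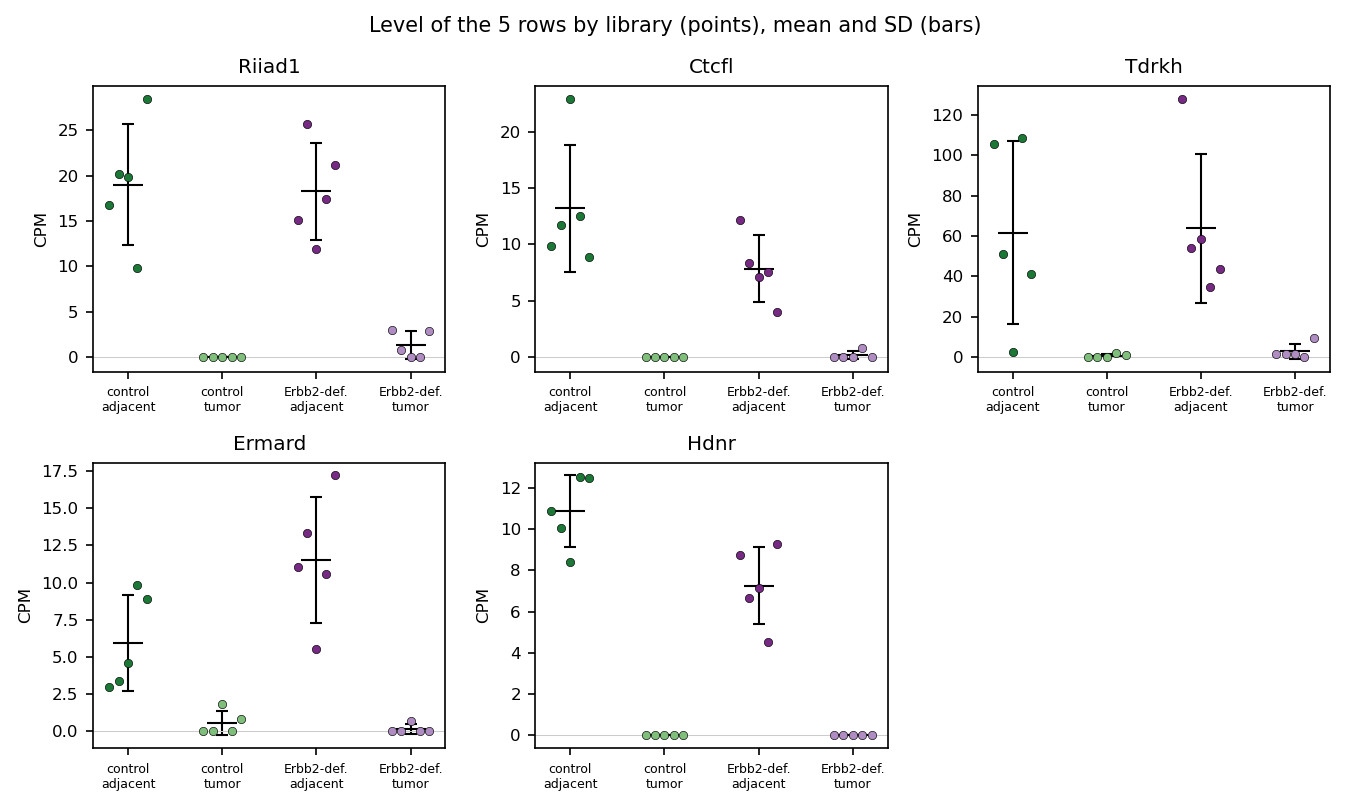
CPM of the Riiad1, Ctcfl, Tdrkh, Ermard and Hdnr rows in each library (points), with the mean and SD of each group of 5 (bars). Every adjacent library lies above every tumor library of its genotype, and Hdnr is at 0 in all 10 tumors.

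The Riiad1 row held 17, 24, 26, 11 and 32 counts in control adjacent samples 1 to 5, and 0 in each control tumor. In Erbb2-deficient mice it held 26, 31, 15, 23 and 32 counts in adjacent samples and 4, 1, 0, 0 and 4 in tumors. The adjacent levels of the genotypes overlapped, and the only tumor reads came from 3 Erbb2-deficient libraries. The mean was 19.0 ± 6.71 CPM (SD, n = 5) in control adjacent tissue and 18.3 ± 5.38 CPM (SD, n = 5) in Erbb2-deficient adjacent tissue. Against a floor of 3 counts over a group at 0, Riiad1 was at least 37.1-fold lower in control tumors. In Erbb2-deficient tumors the mean was 1.33 ± 1.51 CPM (SD, n = 5), a ratio of adjacent to tumor of 13.7.

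The row of the opposite gene behaved otherwise. Celf3 held 534 to 754 counts in control adjacent tissue, 483 to 863 in control tumors, 497 to 877 in Erbb2-deficient adjacent tissue and 591 to 671 in Erbb2-deficient tumors. The 4 groups overlapped. From adjacent tissue to tumor its log2 fold change was 0.12 ± 0.15 (SE; edgeR adjusted p = 0.589) in control mice and 0.00 ± 0.15 (SE; edgeR adjusted p = 0.999) in Erbb2-deficient mice. Of all counts on the pair, the Riiad1 row took 3.51% in control adjacent tissue (exact 95% interval 2.89 to 4.21%) and 3.72% in Erbb2-deficient adjacent tissue (3.11 to 4.42%). In tumors it took 0% (up to 0.109%) and 0.285% (0.130 to 0.540%). These intervals cover counting error only, and the counts are not corrected for length. By the strand reading above, RNA in the direction of Riiad1 was counted in both tissues, and RNA in the direction of Celf3 on Riiad1 exons almost only beside tumors. Over the 20 libraries, with each group centred on its mean, the correlation of the pair was -0.43. The median of 1053 pairs of rows opposite each other was 0.21, with quartiles of -0.06 and 0.49. In tumors Riiad1 held 0 to 4 counts, so its values there depend on a small count added before taking logs. Within the 10 adjacent samples, centred by genotype, r was -0.61 (permutation p = 0.0656, adjusted over 20 pairs of rows 0.299).

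**Figure D2:**
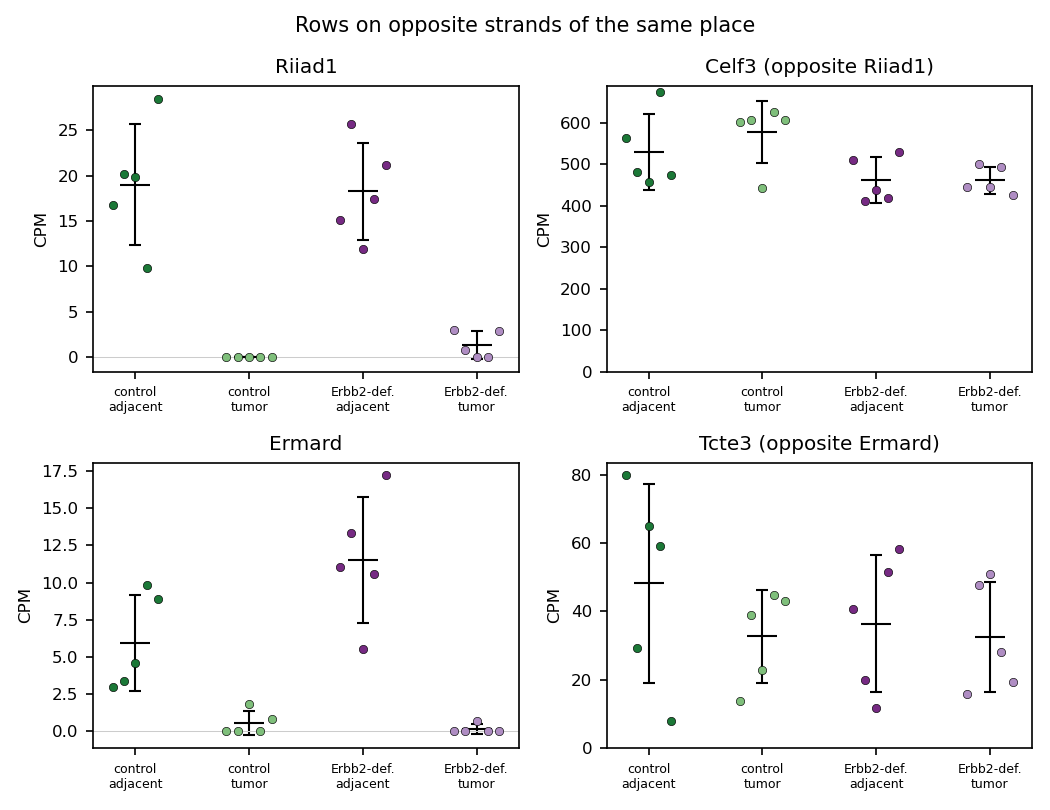
CPM of Riiad1 and Ermard (left) and of the rows opposite them, Celf3 and Tcte3 (right), by library (points) with the mean and SD of each group of 5 (bars). The left rows are near 0 in tumors, while the Celf3 and Tcte3 groups overlap between tissues.

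Ermard and Tcte3 gave a like picture at lower counts. Ermard held 19, 16, 7, 14 and 26 counts in Erbb2-deficient adjacent samples and 0, 0, 1, 0 and 0 in the tumors. In control mice it held 3, 4, 6, 11 and 10 counts in adjacent samples and 0, 0, 2, 0 and 1 in tumors. The control adjacent samples were the lower ones, and 3 of the 5 lay below all Erbb2-deficient ones. Means were 11.5 ± 4.24 CPM (SD, n = 5) beside Erbb2-deficient tumors and 5.93 ± 3.22 CPM (SD, n = 5) beside control tumors. With 1 tumor count, the ratio of adjacent to tumor in Erbb2-deficient mice was 79.8, with a counting interval of 13.9 to 3190. Counting intervals of ratios, here and below, pool the reads of a group and leave out the spread between libraries. In control mice, which did not choose this row, the ratio was 11.5 (3.63 to 58.7) and the fitted log2 fold change -3.29 ± 0.72 (SE; edgeR adjusted p = 0.00304), in a comparison that called 10.9% of rows lower in tumors. Like the other 4 rows, Ermard passed the count filter through adjacent libraries alone, so a difference between tissues was built into its being tested, and the result was known when the rows were put together. Without control tumor 3, which held 2 of the 3 tumor counts, it was -4.28.

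Tcte3, on the other strand, held 9 to 85 counts in control adjacent tissue, 20 to 51 in control tumors, 15 to 88 in Erbb2-deficient adjacent tissue and 21 to 73 in Erbb2-deficient tumors. Its groups overlapped, and no difference between tissues passed the test. The log2 fold change was -0.56 ± 0.51 (SE; edgeR adjusted p = 0.467) in control mice and -0.17 ± 0.51 (SE; edgeR adjusted p = 0.837) in Erbb2-deficient mice. Ermard took 10.97% and 23.63% of the counts of the pair in control and Erbb2-deficient adjacent tissue, and 1.59% and 0.446% in the tumors. Centred by group, the correlation of the pair over 20 libraries was 0.04. The neighbouring row Gm3435, which GENCODE lists on the strand of Ermard, averaged 7.68 to 10.6 CPM in the 4 groups. Gm3448, the other gene opposite Ermard, held 9 counts in all, 6 in Erbb2-deficient adjacent tissue and 3 in the tumors.

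Tdrkh was the most variable of the 5 rows. It held 107, 61, 3, 121 and 46 counts in control adjacent samples and 0, 0, 0, 2 and 1 in control tumors. In Erbb2-deficient mice it held 220, 65, 74, 46 and 66 counts in adjacent samples and 2, 2, 2, 0 and 13 in tumors. Control adjacent sample 3, with 3 counts, was far below the other adjacent samples and close to the tumors. Erbb2-deficient adjacent sample 1 stood far above its group, and Erbb2-deficient tumor 5 above the other tumors. Means were 61.7 ± 45.2 CPM (SD, n = 5) and 63.8 ± 37.1 CPM (SD, n = 5) in control and Erbb2-deficient adjacent tissue. The ratio of adjacent to tumor was 115 in control mice and 23.2 in Erbb2-deficient mice. The control ratio had a counting interval of 38.9 to 559 from 3 tumor counts, which leaves out the wide spread between the adjacent libraries. Without Erbb2-deficient tumor 5 the fitted log2 fold change there moved from -4.48 to -5.72.

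Mrpl9, which lies opposite Oaz3 in GENCODE but not in RefSeq, followed Tdrkh. It held 51, 22, 7, 67 and 34 counts in control adjacent samples and 3, 1, 6, 2 and 1 in control tumors. In Erbb2-deficient mice it held 60, 34, 82, 66 and 26 counts in adjacent samples and 6, 2, 6, 3 and 15 in tumors. Control adjacent sample 3 was again the lowest adjacent sample and Erbb2-deficient tumor 5 again the highest tumor. The fitted log2 fold change was -3.82 ± 0.66 (SE; edgeR adjusted p = 0.000510) in control mice and -3.04 ± 0.59 (SE; edgeR adjusted p = 0.000919) in Erbb2-deficient mice. Among 49 rows of mitochondrial ribosomal proteins named Mrpl, whose median of mean counts was 2.85, Mrpl9 ranked 9 in adjacent tissue with a mean of 44.9 counts and 18 in tumors with a mean of 4.50. Neither rank is corrected for length.

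**Figure D3:**
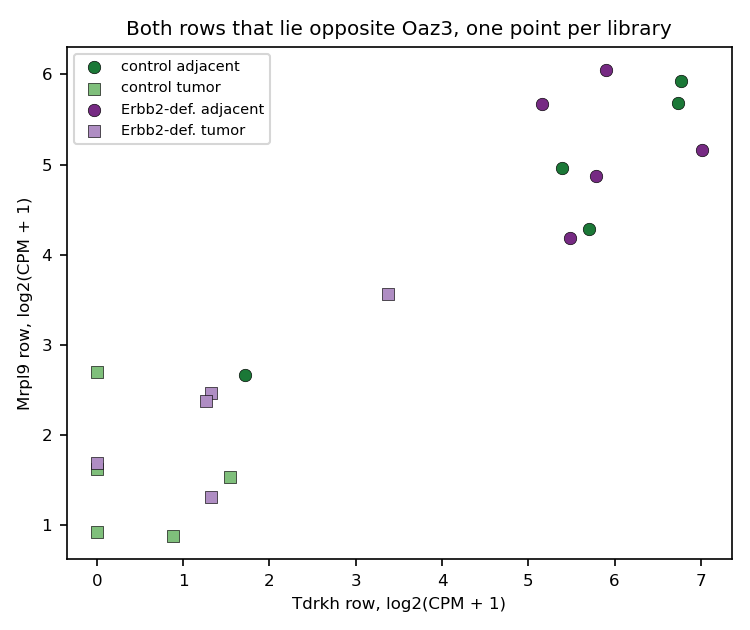
Tdrkh row (horizontal axis) against Mrpl9 row (vertical axis), both as log2(CPM + 1), with 1 point per library. Of the adjacent samples (circles) 9 of 10 lie at the upper right, and control adjacent sample 3, with 3 and 7 counts, lies among the tumors (squares).

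Within the 10 adjacent samples, centred by genotype, Tdrkh and Mrpl9 had a Pearson r of 0.79 and a Spearman rho of 0.64 (permutation p = 0.00812 and 0.0536, adjusted over 20 pairs of rows 0.109 and 0.377). Without the 2 samples farthest from the median r was 0.38, so the relation rests on them. Over all 20 libraries centred by group r was 0.71. The median over 192 pairs of rows that share an opposite gene in GENCODE was 0.25, with quartiles of 0.00 and 0.55. The row of Oaz3 itself counts RNA in the direction of Tdrkh and Mrpl9. It held 5, 6, 5, 10 and 0 counts in control adjacent samples, 1, 13, 4, 0 and 4 in control tumors, 10, 3, 4, 7 and 5 in Erbb2-deficient adjacent samples and 2, 1, 2, 1 and 2 in the tumors. Its groups overlapped in control mice (exact permutation p = 0.778) and did not in Erbb2-deficient mice (4.02 ± 1.45 against 1.17 ± 0.388 CPM, SD, n = 5 each, exact two-sided permutation p = 0.00794, the smallest that 5 against 5 allows, adjusted over 32 tests 0.0317). Of the counts of the pair, Tdrkh took 92.9% and 94.2% in control and Erbb2-deficient adjacent tissue. In tumors it took 12.0% in control (exact 95% interval 2.55 to 31.2%) and 70.4% in Erbb2-deficient mice (49.8 to 86.2%). These intervals cover counting error only. Of the 19 Tdrkh counts in Erbb2-deficient tumors, 13 were in tumor 5. Of the 22 Oaz3 counts in control tumors, 13 were in tumor 2, which was unlike the rest. A difference in share between genotypes was not tested.

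The Ctcfl row held 10, 14, 30, 14 and 10 counts in control adjacent samples and 0 in each control tumor. In Erbb2-deficient mice it held 21, 10, 9, 10 and 6 counts in adjacent samples and 0, 0, 0, 1 and 0 in tumors. Control adjacent sample 3 was the highest, and the genotypes overlapped. Means were 13.2 ± 5.64 CPM (SD, n = 5) in control and 7.84 ± 2.96 CPM (SD, n = 5) in Erbb2-deficient adjacent tissue. The row was at least 25.8-fold lower in control tumors. In Erbb2-deficient mice, which did not choose it, the ratio was 54.5 with a counting interval of 9.39 to 2191 from 1 tumor count.

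The row of Ctcflos was at 0 in all 20 libraries. Every count on the pair, 78 and 56 in control and Erbb2-deficient adjacent tissue and 1 in tumors, was on the Ctcfl row. By the strand reading above, RNA in the direction of Ctcflos was counted on Ctcfl exons, and none in the direction of Ctcfl on Ctcflos exons. Pck1, the gene of gluconeogenesis that follows Ctcflos on its strand, was also lower in tumors. It held 6, 3, 4, 3 and 2 counts in control adjacent samples and 1, 0, 0, 0 and 0 in control tumors, and 12, 17, 11, 16 and 9 against 0, 0, 0, 0 and 1 in Erbb2-deficient mice. The tissues did not overlap in either genotype (exact permutation p = 0.00794, adjusted 0.0317, in each). Spo11, a nuclease of meiosis on the other side of Ctcfl, went the other way in Erbb2-deficient mice, with 1 count in adjacent tissue and 16 in tumors (exact permutation p = 0.00794, adjusted 0.0317), and held 0 and 10 counts in control mice (exact permutation p = 0.0476, adjusted 0.139).

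Hdnr was the steadiest of the rows. It held 11, 12, 11, 14 and 14 counts in control adjacent samples and 15, 8, 9, 6 and 14 in Erbb2-deficient ones, and 0 in all 10 tumors. Means were 10.9 ± 1.73 CPM (SD, n = 5) and 7.26 ± 1.87 CPM (SD, n = 5). The row was at least 21.2-fold lower in control tumors and at least 16.5-fold lower in Erbb2-deficient tumors, where the tissue difference had not chosen it.

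The RNA opposite Hdnr differed in the same direction. Gm34030 held 6, 18, 12, 5 and 10 counts in control adjacent samples and 0, 0, 1, 0 and 0 in control tumors. In Erbb2-deficient mice it held 5, 8, 5, 7 and 12 counts in adjacent samples and 0 in each tumor. The tissues did not overlap in either genotype (exact permutation p = 0.00794, adjusted 0.0317, in each). Hdnr took 54.9% of the counts of the pair in control adjacent tissue (exact 95% interval 45.2 to 64.2%) and 58.4% in Erbb2-deficient adjacent tissue (47.5 to 68.8%). Hand2, the neighbour, held 11, 5, 5, 7 and 11 counts in control adjacent samples and 1, 0, 1, 4 and 0 in tumors, and 13, 6, 8, 4 and 7 against 0, 1, 2, 0 and 1 in Erbb2-deficient mice, again without overlap (exact permutation p = 0.00794, adjusted 0.0317, in each). The nearest values were 3.825 CPM in control adjacent sample 3 and 3.808 CPM in control tumor 4. Hand2os1, the noncoding RNA opposite Hand2, held 2 counts in all 20 libraries. Beside tumors both rows of the Hdnr pair held counts, while at Hand2 the counts lay on 1 row of the pair. Whether both strands were transcribed at Hdnr was not tested. Within the 10 adjacent samples Hdnr and Hand2 had a Pearson r of 0.65 and a Spearman rho of 0.54 (permutation p = 0.0404 and 0.113, adjusted over 20 pairs 0.269 and 0.377), and r was 0.65 without the 2 samples farthest from the median.

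**Figure D4:**
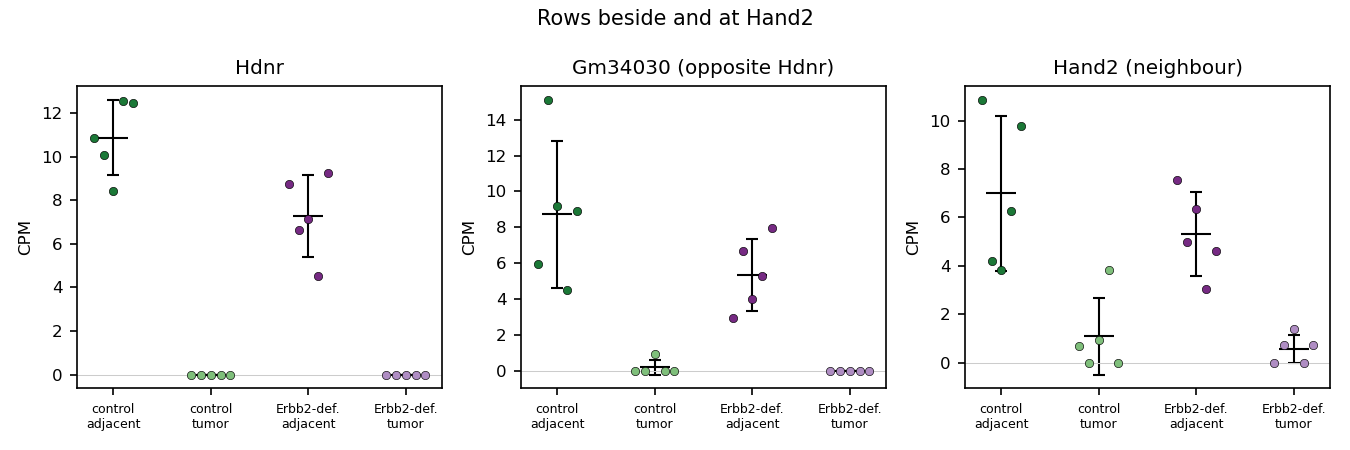
CPM of Hdnr, of Gm34030 on its opposite strand and of the neighbour Hand2 by library (points) with the mean and SD of each group of 5 (bars). All 3 rows are higher in every adjacent library than in every tumor of the same genotype.

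Riiad1, Ctcfl, Tdrkh and Hdnr were chosen in control mice, so Erbb2-deficient mice are where their tissue difference was not used by the choice. There 27.5% of the 7119 rows tested were called between tissues, and 14.5% of the rows tested were called lower in tumors. All 4 rows were among the lower ones. The fitted log2 fold changes in Erbb2-deficient mice were -3.69 ± 0.58 (SE; edgeR adjusted p = 0.000278) for Riiad1, -5.03 ± 0.70 (SE; edgeR adjusted p = 0.000105) for Ctcfl, -4.48 ± 0.82 (SE; edgeR adjusted p = 0.000499) for Tdrkh and -6.24 ± 0.68 (SE; edgeR adjusted p = 5.90e-05) for Hdnr. These calls are not independent support, because they were known when the rows were put together and the rows were tested through their adjacent libraries alone. Ermard, chosen in Erbb2-deficient mice, was at -4.03 in control mice without control tumors 2 and 3. Values fitted against a group at 0, as for Hdnr, depend on a small count added by the fit and are no bound on the fold.

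**Figure D5:**
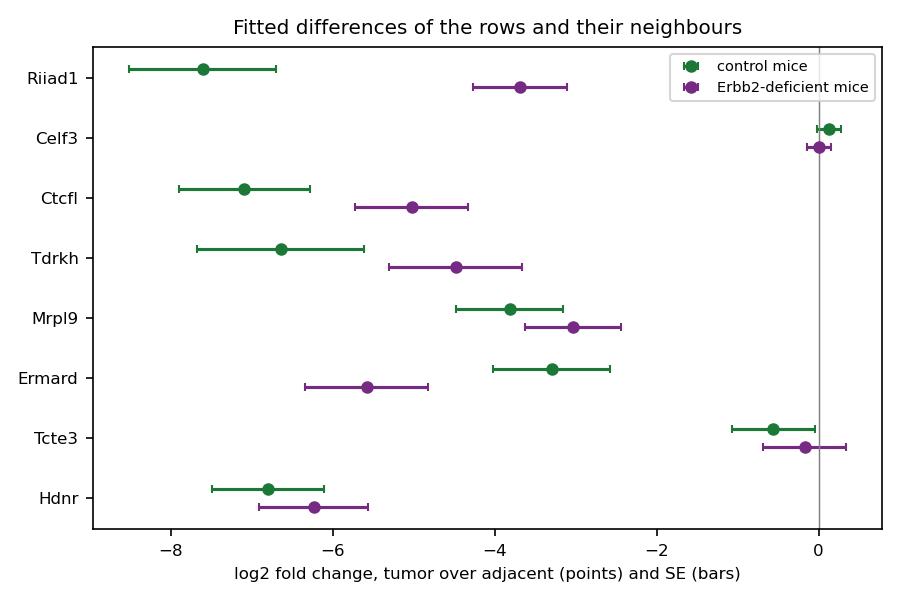
Fitted log2 fold change of tumor over adjacent tissue (points) with its SE (bars) in control and Erbb2-deficient mice for the 5 rows and for Celf3, Mrpl9 and Tcte3. Celf3 and Tcte3 lie near 0, Mrpl9 at -3.82 and -3.04, and values below -6 come from groups at or near 0 counts.

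The rule did not name a difference between genotypes, but each row was taken for the size of its fall in 1 genotype, and those libraries enter the genotype differences too, which are therefore descriptions. None of the 5 rows passed in either tissue. Of all 7119 rows, 0% were called in adjacent tissue and 0% in tumors by edgeR. At an unadjusted p under 0.05 there were 418 and 817 rows, and DESeq2 called 5 and 26. In adjacent tissue the log2 fold change of Erbb2-deficient over control was -0.06 ± 0.45 (SE) for Riiad1, 0.06 ± 0.65 for Tdrkh and -0.56 ± 0.35 for Hdnr. Ermard was at 0.95 ± 0.48 (SE) and Ctcfl at -0.75 ± 0.41 (SE). That none passed does not show that the genotypes were alike.

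Between tumors, Riiad1 differed most, with 9 counts over Erbb2-deficient and 0 over control libraries and a fitted log2 difference of 3.85 ± 1.22 (SE). It was above 0 in 3 of 5 Erbb2-deficient tumors. Tdrkh held 19 and 3 counts, at 2.22 ± 1.25 (SE), and 13 of the 19 came from Erbb2-deficient tumor 5. Ctcfl held 1 and 0 counts, Ermard 1 and 3, and Hdnr 0 in both. Whether the fall into tumors differed between genotypes was tested with an interaction term, and none of the 7119 rows was called (290 at an unadjusted p under 0.05). For the 5 rows this test used the values that chose them.

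Rows named for muscle genes fell in the same tumors. Of 18 smooth muscle markers 17 were tested, and 13 fell in control and 12 in Erbb2-deficient tumors, where 10.9% and 14.5% of all rows tested fell. The counts of the lists that follow are beside the same shares. The median log2 fold change of the list was -3.52 and -2.62, against 0.07 and -0.06 over all rows tested. Smtn, a protein of contractile smooth muscle, averaged 884 ± 374 CPM (SD, n = 5) in control adjacent tissue and 5.18 ± 3.62 CPM (SD, n = 5) in control tumors. Myh11, the smooth muscle myosin, averaged 140 ± 40.0 and 2.64 ± 1.80 CPM (SD, n = 5 each). The summed level of the markers was 1299 to 2877 CPM in control adjacent samples and 202 to 631 in control tumors, and 1268 to 1626 against 257 to 380 CPM in Erbb2-deficient mice, with no marker at 0 in a whole group. These rows are subject to the same strand reading. The markers did not fall alike: Tagln, an actin-binding protein of smooth muscle, went from 464 to 233 CPM in control and from 443 to 193 CPM in Erbb2-deficient mice, and it held the greater part of the tumors' summed level, which averaged 337 and 341 CPM. The part of muscle content in the differences was not tested.

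Rows named for markers of other cell types differed as well. These rows, and those of the lists below, are subject to the same strand reading, and a change in the cell types themselves was not tested. Of 6 tested markers of absorptive colonocytes 5 fell in both genotypes, among them the carbonic anhydrase Car4 and the chloride exchanger Slc26a3 (whose call in control mice was lost without control adjacent sample 5, at an edgeR adjusted p of 0.0512), with summed levels of 170 to 235 CPM in control adjacent tissue and 2.72 to 145 in control tumors. In Erbb2-deficient mice these were 197 to 486 and 13.3 to 63.4 CPM. Of 10 goblet cell markers 8 were tested, and 3 and 5 fell (10.9% and 14.5% of all rows), with summed levels of 198 to 802 against 0 to 617 CPM in control and 497 to 943 against 32.1 to 370 CPM in Erbb2-deficient mice. The 7 general epithelial markers had no call, at 266 to 385 and 17.2 to 456 CPM in control adjacent tissue and tumors, and 271 to 604 and 351 to 632 CPM in Erbb2-deficient mice.

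Of 22 neuron markers only Phox2a passed the filter, with fitted log2 differences of -1.04 ± 0.36 (SE; edgeR adjusted p = 0.0442) in control and -1.06 ± 0.36 (SE; edgeR adjusted p = 0.0333) in Erbb2-deficient mice. Of 20 fits that left out 1 library, 12 and 7 lost these calls. The neuron markers summed to 67.2 to 107 CPM in control adjacent tissue and 25.4 to 42.3 in control tumors, where 13 of them, Uchl1 and Snap25 included, were at 0. In Erbb2-deficient mice they summed to 46.0 to 107 and 19.6 to 48.5 CPM, with 10 at 0 in tumors. Of 15 enteroendocrine markers 3 were tested and Chga fell in both genotypes, though 4 of the 20 fits lost its call in Erbb2-deficient mice. The Cajal cell list fell in 1 and 2 of 2 tested rows, the glial list in 0 of 2. None of the 8 markers of type 17 lymphoid cells passed the filter, and 2 of 10 T and B cell markers did, with 0 calls in control mice and 1 in each direction in Erbb2-deficient mice.

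The pathway lists that go with the gene names were thin. Of 27 germ cell and piRNA genes 6 were tested, Ctcfl and Tdrkh among them. Both were chosen for their fall. Of the other 4, 2 fell in control and 3 in Erbb2-deficient mice, where 10.9% and 14.5% of all rows did. They were Sycp3, a protein of the meiotic chromosome axis, at -2.03 ± 0.33 and -2.18 ± 0.33 (SE), the tudor gene Tdrd12 at -3.91 ± 0.69 and -4.14 ± 0.70 (SE), and in Erbb2-deficient mice Tdrd3 at -0.83 ± 0.26 (SE), a tudor gene that is active in many tissues and whose call 7 of the 20 fits lost. Defining members such as Ddx4, Mael, Tdrd9, Piwil1, Mov10l1 and Stra8 were at 0 in every library of all 4 groups, on rows that by the strand reading count the other direction. Of 15 CTCF and cohesin genes 8 were tested. Ctcfl alone fell, while the cohesin subunit Smc3 rose in both genotypes. Ctcf itself was at 1.20 ± 0.42 (SE; edgeR adjusted p = 0.0448) in control mice, a value set by control tumor 2: without that library it was 0.21 ± 0.21 (SE; edgeR adjusted p = 0.489). In the polyamine list the antizyme inhibitor Azin2 fell, from 44.9 to 1.57 CPM in control and from 38.8 to 1.62 CPM in Erbb2-deficient mice, and the spermine oxidase Smox rose, of 4 tested. The Smox call in control mice was lost in 8 of the 20 fits. Of 5 tested dynein light chains 0 fell in control and 1, Dynlt1f, in Erbb2-deficient mice, a call that 8 of the 20 fits lost. Of the CELF family only Celf3 was tested.

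The rows most like each of the 5 were sought by Pearson correlation of log2 CPM over the 20 libraries, which shared tissue, depth and many low counts, so the values are descriptions. Riiad1 was nearest to Smtn, Myh11 and Cnn1 (r = 0.95 each), then Gss and Hdnr (0.94). Ctcfl was nearest to Smtn and A930016O22Rik (0.97), then Myh11, Gm51959 and Bvht (0.96), Bvht being a noncoding RNA known from heart development. Hdnr was nearest to Hoxb6 (0.98), then Gm15816, the muscarinic receptor Chrm2, Tmem252 and Smtn (0.97). Tdrkh differed: its nearest rows were Zfp251 and the receptor phosphatase Ptprm (0.95), then the pentraxin Mptx1, Gm40231 and Mrpl9 (0.94). Ermard was nearest to Gm31490 (0.96), then Gm12502 and Azin2 (0.93), Gm33509 and Gm16143 (0.92). Smtn was among the first 5 for 3 of the rows and not for Tdrkh or Ermard.

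Among the 10 adjacent samples alone, centred by genotype, the nearest rows were other ones. Casc1 came first for Tdrkh (r = 0.98), Ccdc142 for Ermard (0.96), Cfap97 for Hdnr (0.96), Plk4 for Riiad1 (0.94) and Gm8373 for Ctcfl (0.91). No muscle marker was among the 5 nearest of any row there. The highest r of 7119 rows over 10 samples can be this large by chance. Presence in or absence from these lists therefore tells nothing of a muscle source, which was not tested. Between the 5 rows themselves, r in the adjacent samples ran from -0.45 for Ctcfl and Hdnr to 0.60 for Hdnr and Tdrkh. Without the 2 samples farthest from the median these values were 0.04 and 0.03, while r for Ermard and Riiad1 went from 0.22 to 0.64. None of the 20 pairs examined passed adjustment (lowest adjusted permutation p = 0.109).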

How the data were processed

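RNA from a Maxwell LEV simplyRNA kit was made into TruSeq Stranded mRNA libraries, per the labels. Each deposited file holds the raw counts of 1 library by gene symbol. The tools named in the submitters' processing notes are Trimmomatic, HISAT2 2.2.1, HTSeq 2.0.2 and DESeq2, with build mm39. The strand setting of counting is not given in the sources used here. Summary rows that name no gene (78.6% to 85.1% of reads on no feature) stayed out of library sizes and tests.

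Rows were kept by filterByExpr at a minimum count of 10 (7119 of 46329, all 5 rows included) and fitted with edgeR 4.0.16 in R 4.3.3, using TMM factors, 1 mean per group over 20 libraries and robust quasi-likelihood F tests with Benjamini-Hochberg adjustment at 0.05. SEs were derived from the F statistic as |log2 fold change| over its root. CPM is over rows tested, and a prior count of 2 enters log2 CPM. Partner and neighbour rows that failed the filter were compared by exact two-sided permutation of mean CPM, adjusted over 32 tests. Correlations in adjacent samples used 100000 permutations. A group at 0 was given a floor of 3 counts, and ratios with 1 to 3 counts an exact 95% counting interval.

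The named rows are the 5, the genes listed opposite them, up to 3 neighbours per side, the 5 rows most like each, and up to 4 list members of smallest p. The rows and the gene lists were chosen with earlier results of these data known. The interaction test and the fits of list rows without single libraries were added after the other results had been seen. Transcript overlaps and sequences come from GENCODE M21.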

Additional observations from a re-analysis of the deposited data

Results flagged for a closer look

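Single libraries stood far from the other 4 of their group in 11 places, where the gap to the nearest library was more than 0.71 of the range (Dixon's limit for 5 samples, which chance passes in about 1 of 20 groups). Adjacent tissue gave 2 of them. Ctcfl was highest in control adjacent sample 3 at 22.95 CPM (30 counts), the sample that was lowest for Tdrkh, and Tdrkh was highest in Erbb2-deficient adjacent sample 1 at 128 CPM (220 counts). In tumors, Tdrkh was highest in Erbb2-deficient tumor 5 at 9.366 CPM (13 counts).

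Control tumor 3 gave 3 of the places: Celf3 was lowest there at 444.2 CPM (483 counts), Mrpl9 highest at 5.519 CPM (6 counts) and Gm34030 highest at 0.9198 CPM (1 count). Hand2 was highest in control tumor 4 at 3.808 CPM (4 counts). The rest were single counts in groups otherwise at 0: Ctcfl in Erbb2-deficient tumor 4 at 0.7443 CPM, Ermard in Erbb2-deficient tumor 3 at 0.6983 CPM, and Pck1 in control tumor 1 at 0.698 CPM and in Erbb2-deficient tumor 5 at 0.7205 CPM.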

How the results depend on the processing

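No alternative that tested a row of the 5 changed its call: scaling by RLE factors, DESeq2, no count filter, non-robust fits, leaving out any of the 20 libraries, and the replicate block each gave 5 of 5 lower in tumors of both genotypes and 0 of 5 between genotypes. In the genotype that chose a row its call was fixed by the choice and says nothing of stability. A filter at 30 counts kept 1 of the 5 rows, which was called in each genotype, so the count was 1. A fit of only the 2 groups compared kept 1 row in control and 2 in Erbb2-deficient mice, all called (1 and 2); between tumors it kept none. Fitted folds moved by over 1.5 times without 1 library for Tdrkh (control tumor 4, -7.65; Erbb2-deficient tumor 5, -5.72), Ermard (control tumor 3, -4.28; Erbb2-deficient tumor 3, -6.87) and Ctcfl (Erbb2-deficient tumor 4, -6.32); each of these libraries held most of the tumor counts of its row and group.

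Over all rows, calls in control mice were 593 in a fit of only the 2 groups and 2544 without control tumors 2 and 3, and 2939 in Erbb2-deficient mice without those tumors; the cause was not tested. Between genotypes in adjacent tissue DESeq2 called 5 rows, no filter 1, the fit without control tumors 2 and 3 1, and fits without 1 library 0 to 2 (2 without control tumor 2, 1 without control adjacent sample 5). In tumors DESeq2 called 26. Of the tests on low rows, 0 to 8 passed without 1 library, as fewer libraries allow fewer splits: 0 without control tumor 2, 4 or 5 or Erbb2-deficient tumor 1, 2 or 3, and 5 without Erbb2-deficient tumor 4.

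Uncalled values near 0 changed sign. Celf3 in Erbb2-deficient mice was at 0.0057 with RLE factors, 0.0048 with DESeq2, 0.0052 with no filter, 0.0086 with only 2 groups, 0.0576 without control tumors 2 and 3, 0.0046 with the replicate block and -0.0261 to 0.075 without 1 library. Without 1 library Tcte3 there ran from -0.3848 to 0.0801, and in adjacent tissue between genotypes Riiad1 from -0.2429 to 0.104 and Tdrkh from -0.3895 to 0.3422. The replicate block, which gave 1428 and 1989 calls between tissues, changed no call of the 5 rows; in it Ctcf (0.69, adjusted p = 0.196) and Smox (1.58, 0.0903) in control mice and Phox2a (-0.97, 0.0544) and Dynlt1f (-1.08, 0.0529) in Erbb2-deficient mice lost theirs. List rows that moved by over 1.5 times were Tdrd12 (-4.93), Chga (-5.51), Car4 (-5.75) and Slc26a3 (-5.90) without control tumor 3, Azin2 (-4.04) without control adjacent sample 5, Car4 (-5.52) and Slc26a3 (-5.50) without Erbb2-deficient tumor 4, and Chga (-3.26) without Erbb2-deficient tumor 5. The labels do not say whether a tumor and an adjacent sample with 1 number share a mouse. Their deviations correlated at -0.12 to 0.37, and in 6 of 10 numbers the own number was the best match. The Tsix row held 99 to 2038 counts in both libraries of 4 numbers and 0 to 2 in both of the other 6. These are hints of pairing from the data, not from the design. The numbers with high Tsix counts were 1, 2 and 3 in control mice and 5 in Erbb2-deficient mice, so this row was uneven between the genotypes. By the strand reading it counts RNA in the direction of Xist, and a part of sex in the genotype differences was not tested. With no TMM factor the folds of the 5 rows were 10.7 to 107, all in the same direction. At a prior count of 0.5 the lists of most alike rows over 20 libraries shared 2 to 4 of 5 rows with those given. Counts of 3 to 32 per adjacent library for 4 of the 5 rows limit what differences between genotypes could be detected.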
